A study of Mus musculus with 9 samples.

Results

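The genes described here are stathmin 1 and 9 tubulins, 10 of the 43346 genes in the deposited table of mouse liver RNA-Seq. They were chosen by name: *Stmn1*, the alpha-tubulin genes *Tuba1a*, *Tuba1b*, *Tuba1c* and *Tuba4a*, and the beta-tubulin genes *Tubb2a*, *Tubb2b*, *Tubb4b*, *Tubb5* and *Tubb6*. All 10 passed the filter on low counts and were among the 15024 genes tested. Whole liver was profiled from 9 samples of 12-week-old mice in 3 groups of 3, of the strain written C57/BL6 in the sample records and C57BL/6J in the methods of the study. The baseline group (vehicle_0h) held liver resected at surgery from vehicle-treated mice. The other groups held liver remnants 40 h after 70% partial hepatectomy, from mice given vehicle (vehicle_40h, normal saline) or NSC 87877 (NSC_40h). This small molecule inhibitor of the phosphatases SHP1 and SHP2 was given at 7.5 mg/kg every 12 h by i.p. injection. The sample records place the first dose 12 h before surgery, and the methods of the study place it 1 day before. Male mice of matched age were operated on in small cohorts, which are not named for the samples. No genetic alteration is named for any group. Resected liver from NSC-treated mice was not analysed here, and the 3 vehicle baselines served for both 40 h groups. By the methods of the study, the resected tissue was the median and left lateral lobes, so baseline and remnant are also different lobes. The effects of surgery, time, repeated vehicle injection and lobe can therefore not be told apart. The samples are numbered within their groups, and the study describes them as biological replicates. Whether a baseline and a remnant come from the same mouse is not stated. Counted reads per library ran from 23997363 to 42887589. In bulk liver, fewer cells of a type and less RNA per cell cannot be told apart.

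Microtubules are hollow polymers of alpha- and beta-tubulin dimers, and each tubulin is encoded by several genes whose products are called isotypes. Stathmin 1, also known as oncoprotein 18, binds free tubulin dimers and promotes microtubule disassembly. Its activity is switched off by phosphorylation as cells enter mitosis, when the interphase array is rebuilt into a spindle. Hepatocytes of the adult liver rarely divide, but after partial hepatectomy most of them re-enter the cell cycle. Tubulin messenger RNA is also subject to autoregulation, in which an excess of free dimers leads to decay of tubulin transcripts during translation.

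In vehicle-treated mice, *Stmn1*, *Tubb6*, *Tuba1b* and *Tubb5* rose from baseline to 40 h, by log2 fold changes of 4.45, 4.41, 2.10 and 1.86. These genes and *Tubb4b* were also called as rising in NSC-treated mice. *Tuba1a* in both and *Tuba1c* in NSC-treated mice rose by less than the fold threshold. *Tuba4a*, *Tubb2a* and *Tubb2b* did not pass in any comparison with all 9 livers in the fit. Among the alpha-tubulin transcripts, per length, *Tuba4a* held the largest share at baseline and *Tuba1b* and *Tuba1c* the larger shares at 40 h. In the direct comparison of NSC with vehicle at 40 h none of the 10 genes passed, while 1 of the 3 NSC livers lay far below the others for 6 of them.

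The tubulin genes resemble each other so closely that their reads cannot all be assigned with certainty, and sequences of the beta-tubulin genes and *Stmn1* are shown to make this visible. Coding sequences were taken as the longest open reading frame of the GENCODE M21 transcripts (GRCm38). Among the alpha-tubulin genes, over the whole coding sequence, *Tuba1b* shared 98.3% of aligned positions with *Tuba1a*, 97.9% with *Tuba1c* and 85.2% with *Tuba4a*. Of the distinct 50-base words in the transcripts of a gene, 72.9% for *Tuba1a*, 66.7% for *Tuba1b* and 52.7% for *Tuba1c* also occurred in other genes, against 0.807% for *Tuba4a*. The split of reads among *Tuba1a*, *Tuba1b* and *Tuba1c* is therefore uncertain, because the handling of reads that match several genes is not given in the sources used here.

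Among the beta-tubulin genes the close pair was *Tubb2a* and *Tubb2b*, as the first 60 coding bases show, 5′ to 3′, with capitals at bases that differ from *Tubb2a*.
Tubb2a: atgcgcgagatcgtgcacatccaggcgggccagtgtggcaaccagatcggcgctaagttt
Tubb2b: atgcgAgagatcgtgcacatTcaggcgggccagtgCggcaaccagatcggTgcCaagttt
Tubb4b: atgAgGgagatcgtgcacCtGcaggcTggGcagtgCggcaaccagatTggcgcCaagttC
Tubb5: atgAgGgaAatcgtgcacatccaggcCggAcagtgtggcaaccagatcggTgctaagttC
*Tubb2b* had 5 differences here, *Tubb5* had 7 and *Tubb4b* had 10. *Tubb2a* and *Tubb2b* were identical at 96.5% of aligned coding positions, and 45.6% of the 50-base words of *Tubb2a* occurred in *Tubb2b*. For *Tubb4b*, 32.4% of the words occurred in its copy *Tubb4b-ps1*, to which at most 121 counts were assigned in a library. *Tubb5* shared 0.0892% of its words with any other gene and *Tubb6* shared 0%.

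*Stmn1* has its own near-copy, the processed pseudogene *Gm11223* (ENSMUSG00000046341, chromosome 4, 69925630 to 69926079). The pseudogene and the *Stmn1* coding sequence are both 450 bases long, were identical at 449 positions, and shared an unbroken run of 273 bases from the first coding base. The first 60 bases, which follow for *Stmn1*, are the same in both.
Stmn1: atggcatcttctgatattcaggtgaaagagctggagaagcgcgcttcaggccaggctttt
The word overlap with *Gm11223* was 17.9% of the 50-base words of *Stmn1*.

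Promoter sequence in the RefSeq table for GRCm38.p6 was matched for 7 of the 10 genes, all but *Stmn1*, *Tubb2b* and *Tubb6*. The 250 bases before the RefSeq start are shown for *Tubb5* and *Tubb4b*, which were called in 2 and 1 of the comparisons with baseline, and for *Tuba4a*, which was called in none. They were chosen with calls and matches known. Capitals mark CCAAT and the letters TTTGAA. The sequences are 5′ to 3′ on the strand of the gene.
Tubb4b (chr2:25224703-25224952, minus strand): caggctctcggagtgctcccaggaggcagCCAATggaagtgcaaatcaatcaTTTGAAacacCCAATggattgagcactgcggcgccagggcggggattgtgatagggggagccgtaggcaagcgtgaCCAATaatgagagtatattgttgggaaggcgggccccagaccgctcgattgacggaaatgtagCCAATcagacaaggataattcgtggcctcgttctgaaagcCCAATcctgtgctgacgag
Tubb5 (chr17:35838302-35838551, minus strand): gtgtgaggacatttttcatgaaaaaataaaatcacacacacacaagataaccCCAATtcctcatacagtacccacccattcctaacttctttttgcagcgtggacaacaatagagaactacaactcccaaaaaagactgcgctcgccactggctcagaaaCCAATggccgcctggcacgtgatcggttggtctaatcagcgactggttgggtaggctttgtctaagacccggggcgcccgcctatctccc
Tuba4a (chr1:75219295-75219544, minus strand): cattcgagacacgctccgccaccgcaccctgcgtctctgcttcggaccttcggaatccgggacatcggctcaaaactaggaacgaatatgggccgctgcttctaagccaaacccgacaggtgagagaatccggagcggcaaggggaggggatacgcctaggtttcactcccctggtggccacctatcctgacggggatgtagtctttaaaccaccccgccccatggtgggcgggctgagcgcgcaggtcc
CCAAT, the recognition element of the factor NF-Y, was searched on both strands from 250 bases before to 50 bases after each start. *Tubb4b* held 5 matches, beginning at -221, -188, -122, -59 and -19 from the start, all on the strand of the gene. *Tubb5* held 2, at -198 and -90. *Tuba1a* and *Tuba1c* held 1 each, at -176 and -151, the latter on the opposite strand. *Tuba1b*, called in both comparisons with baseline, held none, and nor did *Tuba4a* and *Tubb2a*. In all, 4 of the 7 genes held CCAAT, where 37.4% of 32851 promoter windows did. The cell cycle homology region, searched as TTTGAA or TTCGAA, occurred in 1 of 7 (*Tubb4b*, at -198) and in 19.2% of all windows. An E2F element, searched as TTTGGCGC or TTTCGCGC, occurred in 0 of 7 and in 0.813% of all windows. The RefSeq start lay 571 bases inside the deposited gene for *Tuba4a* and 175 bases inside it for *Tuba1b*, so windows upstream of the outer start of these genes were not searched. A GC box, searched as GGGCGG, occurred in 6 of 7 and in 35.7% of all windows, and TATAAA in 2 of 7 and in 13.6%. A match is a string of letters and says nothing of binding in these livers.

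*Stmn1* (ENSMUSG00000028832, chromosome 4, 134468320 to 134473843) had the lowest mean level per length of the 10 genes at baseline and the largest fold change of them in NSC. In vehicle its fold change differed from that of *Tubb6* by less than the SE of either, and *Tubb6* was ahead with a replicate block (4.51 against 4.45) and without vehicle_0h replicate 2 (4.50 against 4.25), vehicle_40h replicate 2 (4.34 against 4.31) or vehicle_40h replicate 3 (4.54 against 4.52). Levels are given in CPM, counts scaled to the size of the library with TMM factors that also correct for its composition. The 3 baseline livers had 2.24, 1.496 and 2.57 CPM. The vehicle remnants had 42.4, 54.0 and 41.1 CPM, and the NSC remnants 22.4, 87.2 and 102.3 CPM. Every remnant was above every baseline liver, and the first NSC liver was the lowest remnant. The log2 fold change from baseline was 4.45 in vehicle (SE 0.58, adjusted p = 0.00162, edgeR quasi-likelihood test) and 5.07 in NSC (SE 0.59, adjusted p = 0.000683). Calls required an adjusted p below 0.05 together with a log2 fold change beyond 1.5 in size. By this rule 4 of the 10 genes rose in vehicle, where 5.03% of all genes tested did, and 5 of 10 rose in NSC, against 5.38% of all genes. None of the 10 fell.

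**Figure D1:**
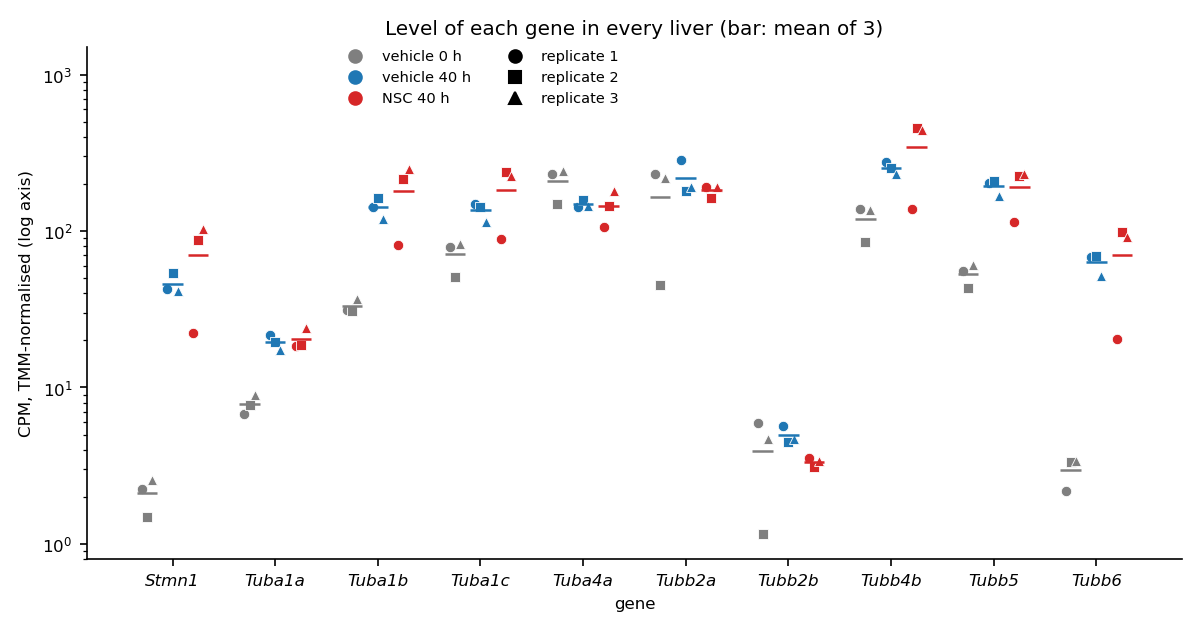
Level of stathmin 1 and 9 tubulin genes in each of 9 livers, in TMM-normalised CPM on a log axis. Colours give the group, marker shapes the replicate number and short bars the mean of 3 livers. *Stmn1* and *Tubb6* lie at or below 3.40 CPM in grey and at or above 20.5 CPM in blue and red, while *Tuba4a* lies at 107 to 242 CPM in all groups.

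Of the alpha-tubulin genes, *Tuba1b* (ENSMUSG00000023004, chromosome 15, 98931425 to 98934565), a ubiquitous alpha isotype, rose most. It was at 31.4, 30.7 and 36.9 CPM at baseline, at 142, 163 and 119.9 CPM in vehicle remnants, and at 81.6, 214 and 248 CPM in NSC remnants. No remnant overlapped baseline, and the first NSC liver was again the lowest of them. Its log2 fold change was 2.10 in vehicle (SE 0.35, adjusted p = 0.00239) and 2.46 in NSC (SE 0.35, adjusted p = 0.000776).

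*Tuba1a* (ENSMUSG00000072235, chromosome 15, 98949841 to 98953551), the main alpha isotype of developing neurons, was low in all livers but moved with little spread. Baseline levels were 6.76, 7.76 and 8.91 CPM, vehicle levels 21.7, 19.6 and 17.3 CPM, and NSC levels 18.3, 18.6 and 23.9 CPM. The first NSC liver did not stand apart here. The log2 fold change was 1.32 in vehicle (SE 0.17, adjusted p = 0.000371) and 1.38 in NSC (SE 0.17, adjusted p = 0.000197), past the adjusted p but under the fold threshold. By adjusted p alone, 5 of 10 genes rose in vehicle (12.7% of all genes rising, 11% falling) and 7 of 10 in NSC (18.2% rising, 16.5% falling).

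*Tuba1c* (ENSMUSG00000043091, chromosome 15, 99029891 to 99038105) was at 79.1, 50.8 and 82.9 CPM at baseline and at 149, 142 and 114 CPM in vehicle remnants. In NSC remnants it was at 88.6, 237 and 225 CPM. The groups did not overlap, although the first NSC liver exceeded the highest baseline liver by little. *Tuba1c* passed the adjusted p in NSC (log2 fold change 1.37, SE 0.34, adjusted p = 0.0115) but not in vehicle (0.93, SE 0.34, adjusted p = 0.0709). Without the first NSC liver in the shared fit, the vehicle value was 0.94 with an adjusted p of 0.00238.

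*Tuba4a* (ENSMUSG00000026202, chromosome 1, 75214228 to 75219865), an isotype found in many differentiated tissues, was the only one of the 10 with a negative log2 fold change in both comparisons with baseline when all 9 livers were in the fit. It was at 233, 149 and 242 CPM at baseline, at 142, 157 and 145 CPM in vehicle remnants, and at 107, 145 and 181 CPM in NSC remnants. The second baseline liver lay among the remnants and the others above all of them. The log2 fold change was -0.49 in vehicle (SE 0.22, adjusted p = 0.124) and -0.53 in NSC (SE 0.22, adjusted p = 0.0814). Without the second baseline liver it was -0.68 (adjusted p = 0.0403) and -0.72 (adjusted p = 0.0236). This gene shares few words with its relatives, so its reads are the least ambiguous among the alpha-tubulins.

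*Tubb5* (ENSMUSG00000001525, chromosome 17, 35833921 to 35838306), a beta isotype common in dividing cells, rose from 55.3, 43.3 and 60.9 CPM at baseline to 203, 209 and 167 CPM in vehicle remnants. In NSC remnants it was at 115, 226 and 231 CPM. No remnant overlapped baseline. The log2 fold change was 1.86 in vehicle (SE 0.25, adjusted p = 0.000522) and 1.84 in NSC (SE 0.25, adjusted p = 0.000357).

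*Tubb4b* (ENSMUSG00000036752, chromosome 2, 25222160 to 25224702), an abundant and widely expressed beta isotype, was at 138, 84.8 and 136 CPM at baseline. Vehicle remnants had 276, 254 and 231 CPM, all above baseline. NSC remnants had 138, 456 and 445 CPM, so that the first liver lay at the level of baseline and the others were the highest of all 9. The gene was called in NSC (log2 fold change 1.53, SE 0.40, adjusted p = 0.0161), just past the fold threshold, and did not pass in vehicle (1.09, SE 0.40, adjusted p = 0.0770). Without the second baseline liver the NSC value was 1.34 with an adjusted p of 0.0530, and without the first NSC liver the vehicle value was 1.09 with an adjusted p of 0.000882.

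*Tubb2a* (ENSMUSG00000058672, chromosome 13, 34074301 to 34078008), a beta isotype also abundant in neurons, had the highest level per length at baseline. Its counts were 233, 45.3 and 218 CPM at baseline, 286, 180.4 and 192 CPM in vehicle, and 192, 163 and 190.2 CPM in NSC. The second baseline liver was at 20.1% of the mean of the other 2 baseline livers. The log2 fold change of 0.41 in vehicle (SE 0.52, adjusted p = 0.618) became -0.04 without that liver, and 0.13 in NSC (adjusted p = 0.863) became -0.31.

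*Tubb2b* (ENSMUSG00000045136, chromosome 13, 34127008 to 34130354), its neuronal neighbour on the same chromosome, followed it at a far lower level, with 5.91, 1.16 and 4.72 CPM at baseline. The second baseline liver was at 21.8% of the other 2, close to the share for *Tubb2a*, with which it has coding sequence in common. Vehicle livers had 5.66, 4.48 and 4.69 CPM and NSC livers 3.54, 3.09 and 3.37 CPM. In the same baseline liver *Tuba1c*, *Tuba4a* and *Tubb4b* were at 62.6%, 62.8% and 62.0% of the other 2, *Tuba1a* was at 99.0% and *Tubb6* at 119%. Summed CPM of the proliferation markers was 27.6 in this liver and 27.2 to 27.5 in the other 2, and that of the hepatocyte markers was 114857 against 118795 and 120898.

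*Tubb6* (ENSMUSG00000001473, chromosome 18, 67390717 to 67402748), a divergent beta isotype, rose almost as far as *Stmn1*. It was at 2.18, 3.33 and 3.40 CPM at baseline, at 68.5, 69.6 and 51.5 CPM in vehicle, and at 20.5, 98.8 and 91.8 CPM in NSC. Every remnant was above every baseline liver, and the first NSC liver was the lowest remnant. The log2 fold change was 4.41 in vehicle (SE 0.60, adjusted p = 0.00212) and 4.57 in NSC (SE 0.60, adjusted p = 0.00123). *Tubb6* had no 50-base word in common with another gene. Across the 10 genes, the 3 livers of one group lay wholly above those of the other in 7 for vehicle and in 6 for NSC, where 24.2% and 24% of all genes did. The median log2 fold change of the 10 was 1.21 in vehicle and 1.46 in NSC, beside 0.01 over all genes tested in each.

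**Figure D2:**
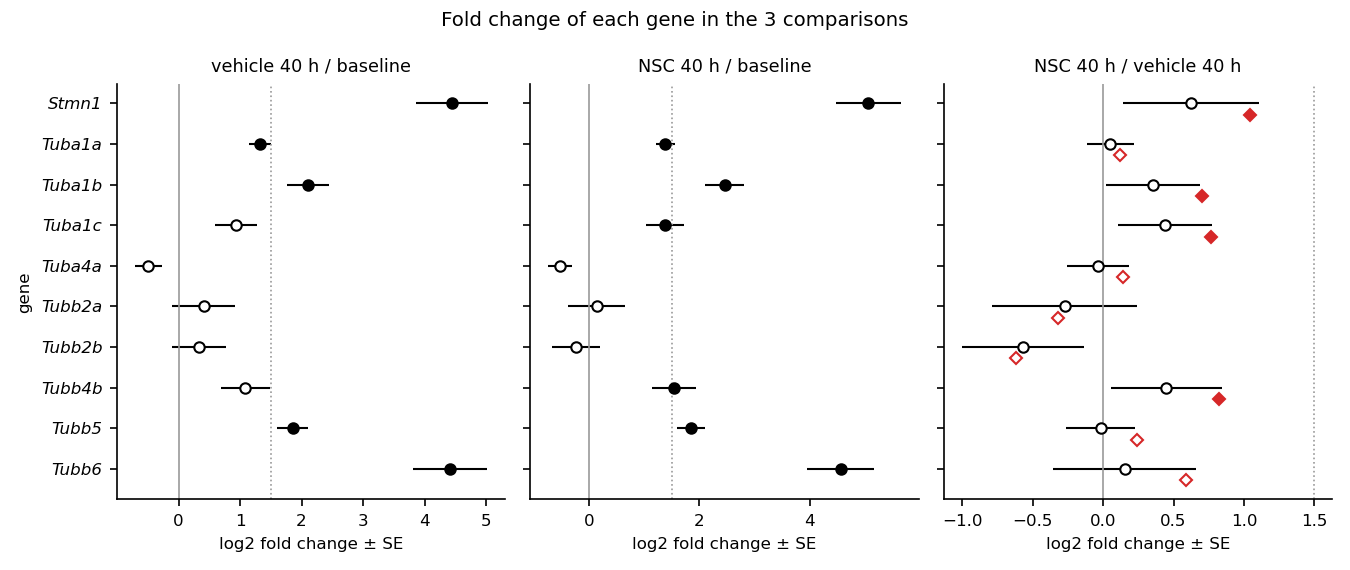
Log2 fold change with its standard error (bars) for each gene in the 3 comparisons, from 1 edgeR fit of 9 livers. Filled circles have an adjusted p under 0.05, the dotted line marks a log2 fold change of 1.5, and red diamonds give the direct comparison without the first NSC liver, filled where the adjusted p is under 0.05. *Stmn1* and *Tubb6* lie beyond 4 in both comparisons with baseline, and every circle is open in the direct comparison.

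Levels of different genes can be set side by side only per length, for which RPKM, the counts scaled to gene length and to TMM library size, were used. At baseline the order began with *Tubb2a* at 105 ± 65.9 RPKM (SD, n = 3), *Tubb4b* at 57.2 ± 14.4 and *Tuba4a* at 56.2 ± 13.9, whose livers overlapped one another in level. *Tuba1c* followed at 35.9 ± 8.89 and overlapped *Tuba4a*, with *Tuba1b* at 17.6 ± 1.82 and *Tubb5* at 16.0 ± 2.70, of which the last pair overlapped. *Tuba1a* was at 4.74 ± 0.653 RPKM, and *Tubb2b*, *Tubb6* and *Stmn1*, at 2.04 ± 1.29, 1.69 ± 0.389 and 1.09 ± 0.287, overlapped as neighbours at the bottom.

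In vehicle remnants the order was *Tubb2a* (139 ± 36.3 RPKM, SD, n = 3), *Tubb4b* (121 ± 10.9), *Tuba1b* (75.6 ± 11.4), *Tuba1c* (68.4 ± 9.31), *Tubb5* (58.0 ± 6.77), *Tuba4a* (40.0 ± 2.15), *Tubb6* (36.0 ± 5.76), *Stmn1* (23.8 ± 3.69), *Tuba1a* (11.9 ± 1.35) and *Tubb2b* (2.57 ± 0.326). *Tuba4a* had gone from rank 3 to rank 6, and *Stmn1* from rank 10 to rank 8. Neighbours overlapped for *Tubb2a* with *Tubb4b*, for *Tuba1b* with *Tuba1c* and *Tuba1c* with *Tubb5*, and for *Tuba4a* with *Tubb6*. In NSC remnants *Tubb4b* came first at 166 ± 86.6 RPKM and *Tubb2a* was next at 115 ± 10.5, and neighbours overlapped from there down to *Tuba1a* at 12.3 ± 1.91. The wide spread of the NSC group leaves its order largely unresolved.

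The makeup of the alpha-tubulin transcripts differed between baseline and 40 h livers. Each isotype is given as its percent of the summed RPKM of the 4 alpha-tubulin genes in a liver. *Tuba4a* held 50.8%, 46.3% and 49.4% in the baseline livers, 18.9%, 19.9% and 22.9% in vehicle remnants, and 22.5%, 13.8% and 15.8% in NSC remnants. *Tuba1b* took the opposite course, with 13.5%, 18.8% and 14.9% at baseline, 37.5%, 40.7% and 37.3% in vehicle, and 33.9%, 40.1% and 42.8% in NSC. The shift was of like size in the first NSC liver, in which the level of *Tuba1b* was well under that of the other NSC livers. *Tuba1c* was at 31.2% ± 1.48 (SD, n = 3) at baseline, 34.9% ± 1.95 in vehicle and 37.9% ± 3.78 in NSC. For these 3 genes baseline and 40 h groups did not overlap, and the exact permutation test gave the smallest two-sided p that 3 against 3 livers allow, 0.1, in both comparisons. Shares of *Tuba1a* were 4.27% ± 1.06, 6.07% ± 0.467 and 5.78% ± 2.52 (SD, n = 3), with an exact p of 0.1 in vehicle and 0.6 in NSC. The division among *Tuba1a*, *Tuba1b* and *Tuba1c* is uncertain for the reads they share, while 0.807% of the words of *Tuba4a* occurred in other genes.

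**Figure D3:**
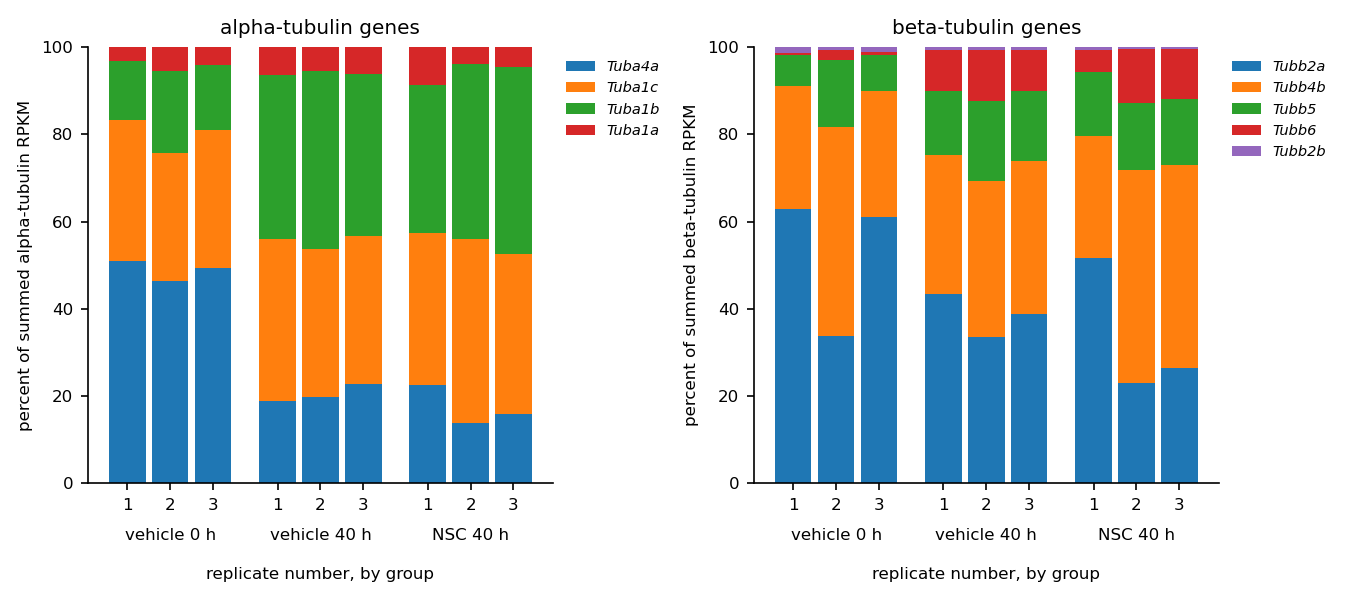
Share of each isotype in the summed length-scaled level (RPKM) of the alpha-tubulin genes (left) and beta-tubulin genes (right), 1 bar per liver. The *Tuba4a* segment holds 46.3% to 50.8% of the alpha bars at baseline and 13.8% to 22.9% at 40 h, while the beta bars vary among livers of 1 group.

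The beta-tubulin makeup varied more between livers of a group. *Tubb6* was at 0.530%, 2.23% and 0.857% of the summed beta-tubulin RPKM at baseline, at 9.38%, 11.6% and 9.34% in vehicle, and at 4.96%, 12.6% and 11.5% in NSC (exact p of 0.1 in both comparisons). *Tubb2a* held 62.9%, 33.8% and 61.1% at baseline, 43.4%, 33.5% and 38.7% in vehicle and 51.6%, 23.0% and 26.3% in NSC, with overlapping groups (exact p of 0.3 and 0.2). *Tubb5* was at 10.2% ± 4.50, 16.4% ± 1.90 and 15.0% ± 0.303 (SD, n = 3; exact p of 0.2 and 0.4), and *Tubb4b* at 35.0% ± 11.2, 34.3% ± 2.13 and 41.2% ± 11.5 (exact p of 1 and 0.7). Thus the share of *Tubb4b* in vehicle remnants lay within its spread at baseline. *Tubb2b* stayed at or under 1.31% in all livers.

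Summed over isotypes, alpha-tubulin was at 114 ± 24.1 RPKM (SD, n = 3) at baseline, 196 ± 21.7 in vehicle and 241 ± 98.2 in NSC, and beta-tubulin at 181.5 ± 83.9, 357 ± 52.7 and 379.6 ± 125. The vehicle sums were 1.71 and 1.96 times baseline, an exact permutation p of 0.1 for each. The NSC sums were 2.10 and 2.09 times baseline. That of alpha-tubulin overlapped baseline (exact p of 0.2) and that of beta-tubulin did not (exact p of 0.1). *Stmn1* was also higher relative to tubulin. Its RPKM was 0.326%, 0.453% and 0.374% of the summed tubulin RPKM in the baseline livers, 3.57%, 5.07% and 4.403% in vehicle remnants, and 3.21%, 6.20% and 6.95% in NSC remnants. The ratio was 11.3 times baseline in vehicle and 14.2 times in NSC (exact p of 0.1 for each), and the 40 h groups overlapped (exact p of 0.5). In the first NSC liver it was still above every baseline liver, at a summed alpha-tubulin level of 128 RPKM that lay within the baseline range of 87.0 to 132 RPKM.

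The direct comparison of NSC with vehicle at 40 h asks whether NSC 87877 altered these transcripts in the regenerating remnant. The compound inhibits both SHP1 and SHP2, whose parts cannot be told apart here. None of the 10 genes passed the adjusted p, also by DESeq2 or edgeR's exact test. In edgeR's quasi-likelihood test 0 of 10 reached an unadjusted p under 0.05, which 19.5% of all genes did. *Tubb2b* had an unadjusted p of 0.042 in edgeR's exact test and of 0.035 with only the 2 groups compared. By adjusted p, 0.0399% of all genes passed. The largest positive values were for *Stmn1* (log2 fold change 0.62, SE 0.48, adjusted p = 0.507), *Tubb4b* (0.45, adjusted p = 0.556), *Tuba1c* (0.44, adjusted p = 0.491) and *Tuba1b* (0.35, adjusted p = 0.580). *Tubb5* was at -0.02, *Tuba4a* at -0.03, *Tuba1a* at 0.05 and *Tubb6* at 0.15, and the first pair turned positive with scaling to library size only. Only for *Tubb2b* did the 2 groups not overlap, with every NSC liver below every vehicle liver (log2 fold change -0.57, SE 0.44, adjusted p = 0.491). Groups that do not overlap in either direction occurred for 22.5% of all genes.

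The first NSC liver lay far below the other 2 for 6 of the 10 genes. In it, *Tubb6* was at 21.5% of the mean of the other 2 NSC livers, *Stmn1* at 23.7%, *Tubb4b* at 30.5%, *Tuba1b* at 35.3%, *Tuba1c* at 38.4% and *Tubb5* at 50.3%. *Tuba4a* was at 65.5%, *Tuba1a* at 86.0%, *Tubb2a* at 109% and *Tubb2b* at 109.7%. The summed CPM of 7 proliferation markers was 221 in this liver and 854 and 709 in the other NSC livers, beside 318 to 379 in vehicle and 27.2 to 27.6 at baseline. It was the lowest NSC liver for *Mki67*, *Top2a*, *Cdk1*, *Ccnb1* and *Ccna2*, with *Cdk1*, the mitotic kinase, at 23.8 CPM against 166 and 184. *Pcna* (56.0 CPM against 57.4 and 55.6) and *Mcm2* (17.0 CPM against 19.8 and 15.2), which act in DNA replication, lay between the other two. Its stellate cell markers summed to 489 CPM against 271 and 295, its macrophage markers to 489 CPM against 295 and 311, and its sinusoidal endothelial markers to 239 CPM against 136 and 156. Its summed hepatocyte markers were the lowest of the 3, at 94131 CPM against 101360 and 112303, and most of that sum was *Alb* (81425 CPM). *Alb*, *Ttr*, *Apoa1*, *Cps1*, *Serpina1c* and *Asgr1* were each lowest in it. *Hnf4a* was highest in it (780 CPM against 668 and 570), and *Tdo2* lay between the other livers (799 CPM against 540 and 930). The part of these differences in the result was not tested.

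Without the first NSC liver, 4 of the 10 genes passed the adjusted p in the direct comparison, all of them higher in NSC, where 3.73% of all genes did. These were *Stmn1* (log2 fold change 1.04, SE 0.19, adjusted p = 0.00799), *Tubb4b* (0.83, adjusted p = 0.0323), *Tuba1c* (0.77, adjusted p = 0.0432) and *Tuba1b* (0.70, adjusted p = 0.0291). *Tubb6* was at 0.59 with an adjusted p of 0.0754. None exceeded the fold threshold of 1.5. In the list of spindle microtubule-associated proteins 10 of 18 genes and among the proliferation markers 5 of 7 were then higher. With 2 NSC livers left the group is small, the liver was singled out after its values were seen, and the labels give no reason to set it aside.

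Among all 15023 other genes tested, the 4 most like *Stmn1* across the 9 livers were *Gm11223*, *Neil3*, *Ncaph* and *Lrr1*. Likeness is the root mean square difference in log2 CPM after each gene is centred on its mean, and was 0.28, 0.29, 0.30 and 0.31 for these genes. In the baseline livers *Neil3* had 4, 2 and 3 counts and *Lrr1* had 0, 0 and 1, so the prior count of 2 sets much of their values there. Both genes passed the filter only through the 40 h livers. Their fitted log2 fold changes, 5.11 and 6.09 in vehicle and 5.73 and 6.73 in NSC, rest on those baseline counts. They are therefore not set against the fold changes of *Stmn1*. *Neil3* encodes a DNA glycosylase, *Ncaph* a subunit of the condensin I complex, and *Lrr1* a substrate receptor of a ubiquitin ligase that acts in DNA replication. *Gm11223* is the near-copy described above, and its counts were 15.5% to 28.2% of those of *Stmn1* at baseline and 16.0% to 20.9% at 40 h, and reads that fit both cannot be told apart. Of the tubulins *Tubb6* came closest, at rank 15 (0.39), followed by *Tuba1b* at rank 255, *Tubb5* at 353 and *Tubb4b* at 587, with *Tuba4a* at 11021.

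**Figure D4:**
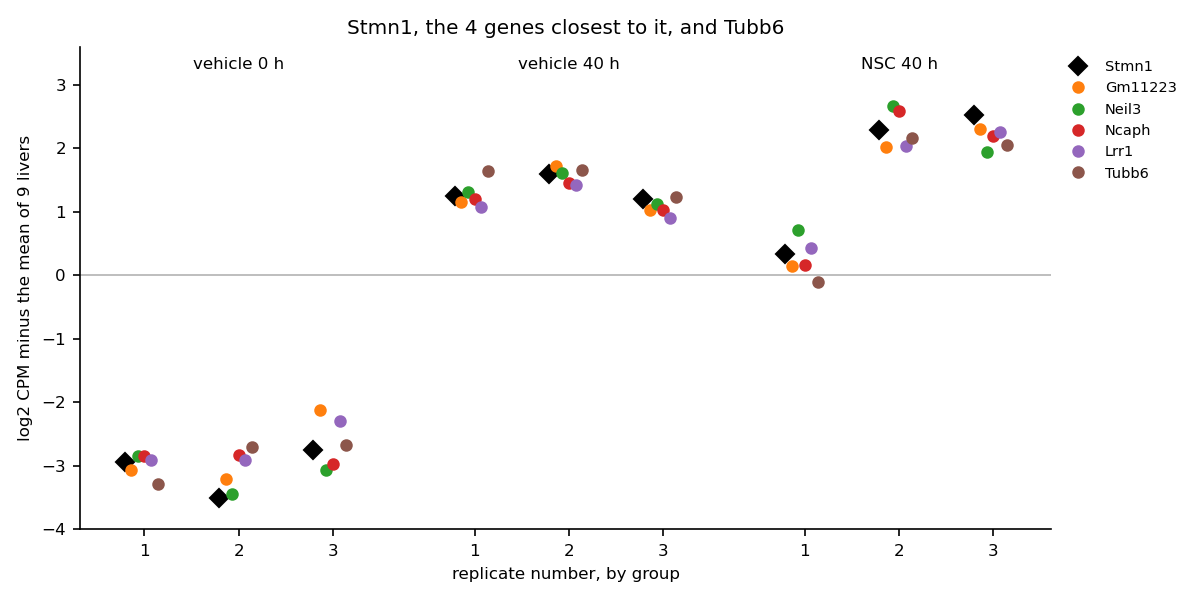
Log2 CPM minus the mean of 9 livers, for *Stmn1* (black diamonds), the 4 genes closest to it and *Tubb6*, by replicate within each group. All 6 lie below -2 in the baseline livers, near or above 1 in vehicle remnants, between -0.10 and 0.72 in the first NSC liver, and near 2 or above in the other NSC livers.

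Other genes of the microtubule system were taken from lists. Of 6 other tubulins tested among 11 listed, 3 rose in vehicle and 4 in NSC by adjusted p, where 12.7% and 18.2% of all genes did, and none fell. Both counts include *Tubb3*, which had 0 counts in each baseline liver and passed the filter only through the 40 h livers. The median log2 fold change of these 6 was 1.14 and 1.43. *Tube1*, which encodes the centriolar epsilon-tubulin, rose by log2 fold changes of 1.59 (adjusted p = 0.00787) and 2.09 (adjusted p = 0.00122). *Tuba8* was at 1.46 in vehicle (adjusted p = 0.0258) and 1.33 in NSC (adjusted p = 0.0289), where its livers overlapped baseline. *Tubd1*, which encodes delta-tubulin, was at 1.54 in NSC (adjusted p = 0.0100) and did not pass in vehicle (0.81, adjusted p = 0.144). *Tubb3*, a beta isotype known as a neuronal marker, had 0 counts in each baseline liver, 28, 33 and 13 counts in vehicle remnants and 20, 6 and 2 in NSC remnants. Against a floor of 3 counts per baseline library it was at least 7.13-fold higher in vehicle. In NSC it was at 0.60, 0.204 and 0.0783 CPM, the last of them under the floor of 0.0951 CPM, and no fold is given. *Stmn2*, *Stmn3* and *Stmn4*, the neuronal stathmins, had at most 4 counts in a library and were not tested.

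Of the other microtubule lists, that of spindle microtubule-associated proteins held the most genes that rose by adjusted p. These were 14 of 18 in vehicle and 15 of 18 in NSC, where 12.7% and 18.2% of all genes rose. The medians of the list were 2.77 and 3.40. *Tpx2*, *Ckap2*, *Ckap2l*, *Prc1*, *Nusap1*, *Hmmr* and *Kntc1* averaged 0.170 to 0.286 CPM at baseline. These genes passed the filter only through the 40 h livers, so their rise was largely set by the filter. The counts and medians of the list are therefore a description and no test. *Kntc1*, which acts at the kinetochore, rose by fitted log2 fold changes of 5.99 (adjusted p = 1.38e-05) and 6.10 (adjusted p = 7.97e-06). Its baseline levels of 0.221, 0.0916 and 0.330 CPM were near the floor, which limits these values. *Haus6* and *Haus8*, subunits of the augmin complex that nucleates spindle microtubules, rose by 1.56 and 1.47 in vehicle and by 2.05 and 1.62 in NSC. *Numa1*, which organises spindle poles, fell in NSC (-0.98, adjusted p = 0.00137) and is named after its value was seen as the 1 member that fell. Of the microtubule severing proteins 1 of 6 rose in each comparison, which is near the shares over all genes and no result about the list. The gene was *Fignl1*, at 5.42 and 6.34, whose product is also known for a role in homologous recombination. It was at 0.126, 0.183 and 0.231 CPM at baseline, near the floor, and passed the filter only through the 40 h livers.

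Of 13 plus end proteins, 3 rose and 2 fell in vehicle, and 4 rose and 3 fell in NSC. Over all genes 12.7% rose and 11% fell in vehicle, and 18.2% rose and 16.5% fell in NSC, beside which counts of this size are no result about the list. *Tacc3*, a spindle protein, rose by 3.67 (adjusted p = 0.00618) and 4.36 (adjusted p = 0.00224) on the log2 scale, and *Mapre1*, which encodes EB1, by 0.62 and 1.01. Its relatives went the other way in both comparisons. *Mapre2* was at -0.70 in vehicle (adjusted p = 0.00809) and -0.59 in NSC (adjusted p = 0.0141). *Mapre3* was at -0.61 in vehicle (adjusted p = 0.0205) and -0.93 in NSC (adjusted p = 0.00167). Of 11 lattice-binding proteins, again no result beside those shares, 2 rose and 1 fell in each comparison, the latter *Map7* at -0.76 and -0.81, while *Map7d1* was at 0.81 and 0.48. *Map1a* rose in vehicle (1.90, adjusted p = 0.0296) and *Map2* in NSC (1.24, adjusted p = 0.0301). Levels of *Map1a* were low, at 0.190, 0.366 and 0.198 CPM at baseline and 0.926, 1.24 and 0.664 CPM in vehicle. It passed the filter only through the vehicle remnants.

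Genes that fold, nucleate and modify tubulin were read against the same shares over all genes, 12.7% rising and 11% falling in vehicle and 18.2% and 16.5% in NSC, beside which their small counts are no result about a list. None of 8 tubulin folding cofactors and none of 8 subunits of the CCT chaperonin, which folds tubulin and actin, passed in either comparison, and their medians lay between -0.27 and 0.25. Of 6 prefoldin subunits 1 rose in vehicle and 2 in NSC, namely *Vbp1* (1.09 and 1.98) and *Pfdn4* (1.31 in NSC, adjusted p = 0.00309). None of 10 genes of the gamma-tubulin ring complex, which nucleates microtubules, passed in vehicle. In NSC 2 rose (*Mzt1* at 0.84 and *Tubgcp4* at 0.50) and *Mzt2* fell (-0.63). Of 15 tubulin modifying enzymes, 1 rose and 1 fell in vehicle, and 3 fell in NSC. *Atat1*, which acetylates alpha-tubulin, fell by 0.64 and 0.70 on the log2 scale, and the deacetylase genes *Sirt2* and *Hdac6* fell by 0.61 and 0.52 in NSC. *Ttll4*, a glutamylase, was at 0.52 in vehicle. Of 7 other cytoskeletal genes 4 rose in vehicle and 3 in NSC, among them *Lmnb1* (1.76 and 2.37), *Krt18* (1.26 and 0.89) and *Vim* (1.60 in vehicle). No gene of any of these lists passed the adjusted p in the direct comparison with all 9 livers.

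**Figure D5:**
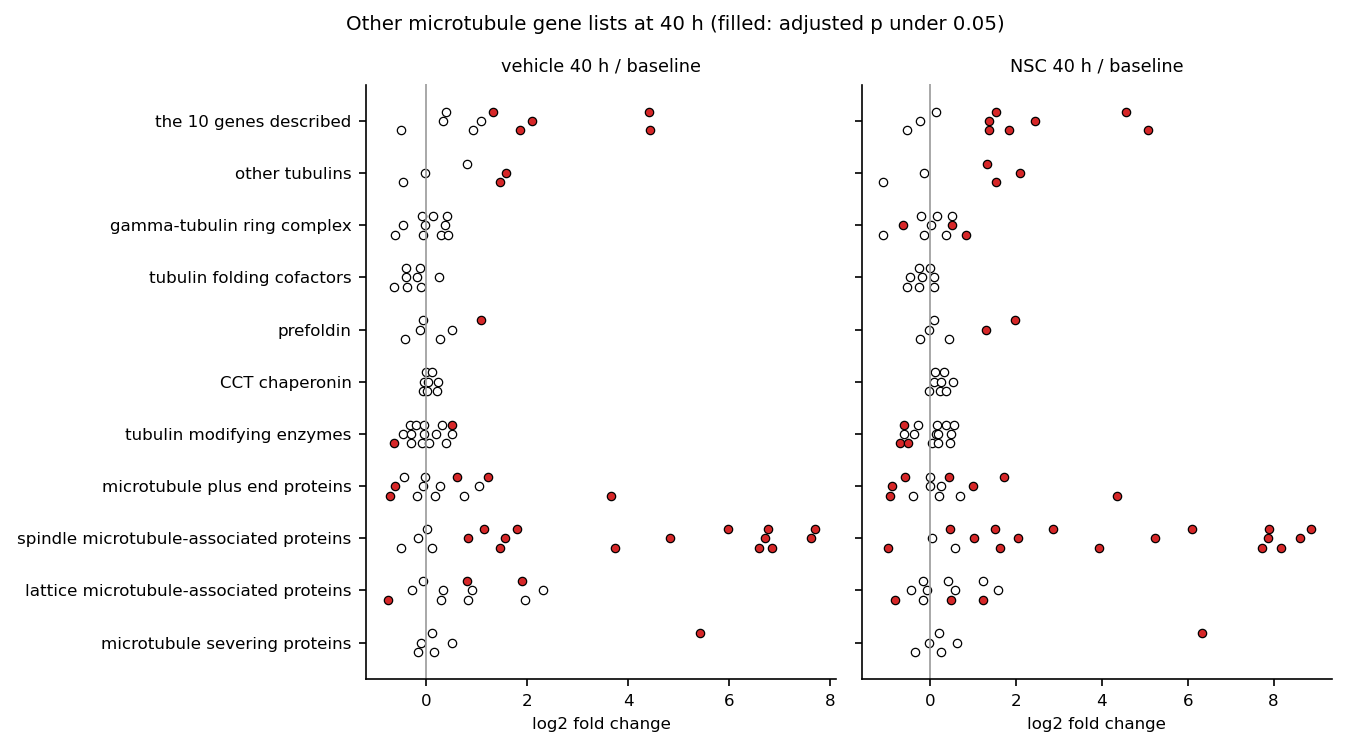
Log2 fold change of each tested gene of the microtubule lists against baseline, for vehicle (left) and NSC (right), 1 point per gene, filled where the adjusted p is under 0.05. *Tubb3* is left out because it had 0 counts in all baseline livers. Points of the spindle list reach beyond 7, all for genes at or under 0.286 CPM on average at baseline. Those of the folding cofactors and the CCT chaperonin are open and near 0.

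Markers of the cells a liver can hold were read in the same livers, where 12.7% of all genes rose and 11% fell in vehicle, and 18.2% rose and 16.5% fell in NSC. All 7 proliferation markers rose in both comparisons, with medians of 5.41 and 6.60. Of these, *Ccnb1*, at 0.158 CPM on average at baseline, passed the filter only through the 40 h livers. None of 8 hepatocyte markers rose, and 2 fell in vehicle and 4 in NSC. Their sum was 114857 to 120898 CPM at baseline, 89988 to 126509 in vehicle and 94131 to 112303 in NSC, so that defining transcripts of the labelled tissue were abundant in every library. Of 8 stellate cell markers 4 rose in vehicle and 3 in NSC, with sums of 219.5 to 254 CPM at baseline, 393 to 489.8 CPM in vehicle and 271 to 489 in NSC. Of 8 macrophage markers 2 and 5 rose, with sums of 152 to 223, 149 to 272 and 295 to 489 CPM. Of 6 cholangiocyte markers tested 4 and 3 rose, with sums of 50.6 to 56.0, 85.1 to 127 and 89.2 to 131 CPM. Of 6 neutrophil markers tested 2 and 4 rose, at sums of 3.88 to 11.8, 10.1 to 21.5 and 13.7 to 23.2 CPM. Both counts include *Retnlg* and *Mmp8*, at 0.232 and 0.0835 CPM on average at baseline, which passed the filter only through the 40 h livers.

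Sinusoidal endothelial markers were not higher, with 0 of 7 rising, 2 falling in vehicle and 1 in NSC, and sums of 191 to 202 CPM at baseline, 119 to 190.1 in vehicle and 136 to 239 in NSC. Lymphocyte markers summed to at most 7.89 CPM in any liver, with 2 and 1 of 5 tested falling, and erythroid markers to 229 to 329 CPM at baseline, 106 to 186 in vehicle and 129.8 to 231 in NSC, with 2 of 7 falling in each. No listed marker was at 0 in all libraries. Several of these cell types express *Stmn1* and tubulins when they divide, and their part in the differences was not tested.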

How the data were processed

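Whole liver of 9 mouse samples in 3 groups of 3 was profiled by stranded, polyadenylated RNA-Seq. Alignment with STAR 2.6.1 (MAP-RSeq pipeline) and gene assignment with featureCounts of Subread 1.5.1 were done by the authors, who deposited raw counts per gene and library without pooling. The study names the human build hg38, whereas the gene identifiers and positions in the table are those of mouse GRCm38. The authors also deposited FPKM values, which were used only for a check: they equal the counts divided by the library total and by the gene length plus 1 base (largest relative difference 4.96e-10 for values above 1).

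The tests used edgeR 4.0.16 and limma 3.58.1 in R 4.3.3. Libraries were scaled by TMM, genes kept by filterByExpr, and all 9 libraries entered 1 robust quasi-likelihood fit with the group as the only term. P-values were adjusted over all 15024 genes by the Benjamini-Hochberg method. The SE is the log2 fold change divided by the square root of F. Log2 CPM used a prior count of 2. Isotype shares were compared by exact two-sided permutation. Replicate numbers were not used in the main fit. Same-numbered samples correlated at -0.05 to 0.13 in their deviations from group means, over 0.1 in 1 of 9 pairs. Samples with different numbers correlated at -0.12 to 0.07. This check cannot settle whether equal numbers mark the same mouse or cohort. The scripts were tested on simulated data with known changes.

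The genes and the 21 lists (188 genes) were chosen with earlier results of these data known. From each list other than cell markers, up to 3 genes per comparison were named by smallest adjusted p among those under 0.05 whose groups did not overlap. The genes most like *Stmn1* were to be 5, of which 1 is not reported here, and nor are the coding bases of the alpha-tubulin genes. Alternatives were RLE factors, library size only, other count filters, DESeq2 1.42.0, edgeR's exact test, the replicate number as a term, only the 2 groups compared, no fold threshold, shares on CPM, and each library left out in turn. Replicate libraries differed by a chi-square of 25.1 to 152 per gene, so none duplicated another. With 3 livers per group, p-values measure only the spread between these samples. A floor of 3 counts was 0.0751 to 0.117 CPM. Tables were handled in Python 3.11.15 with pandas 2.3.3, and plots drawn with matplotlib 3.10.9.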

Additional observations from a re-analysis of the deposited data

How the results depend on the processing

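Under all 18 alternatives *Stmn1*, *Tubb6*, *Tuba1b* and *Tubb5* were called in both comparisons with baseline. The number called was 4 in vehicle (5 without the fold threshold) and 4 to 7 in NSC, where *Tubb4b* lost its call at 1.53 with every gene of at least 1 count, and at 1.47 with a replicate block. Each library left out in turn gave 4 in vehicle, 4 to 6 in NSC and 0 in the direct comparison. Without baseline replicate 2, NSC replicate 2 or NSC replicate 3, *Tubb4b* was at 1.34, 1.29 and 1.32 in NSC and not called, and without baseline replicate 3 or NSC replicate 1 *Tuba1c* was called there, at 1.502 and 1.70. With the replicate number as a block the counts were 4, 4 and 0, and *Tubb6* turned to -0.072 in the direct comparison. With library size only, which shifted the median of all genes to 0.15 (NSC against baseline) and 0.14 (direct), *Tuba4a* and *Tubb5* turned to 0.091 and 0.099 in the direct comparison and *Tuba1a* was called at 1.52 in NSC. Leaving out 1 library reversed values that had not passed. Direct values ranged from -0.084 to 0.13 for *Tuba1a*, -0.23 to 0.14 for *Tuba4a*, -0.18 to 0.24 for *Tubb5* and -0.17 to 0.59 for *Tubb6*. Values against baseline ranged from -0.040 to 0.73 (vehicle) and -0.31 to 0.46 (NSC) for *Tubb2a*, and from -0.10 to 0.75 and -0.67 to 0.18 for *Tubb2b*. The 0 genes called in the direct comparison stood beside 3 called among all genes by edgeR's quasi-likelihood test, 45 by DESeq2, 63 by the exact test and 181 without the first NSC liver. Of the other genes named, calls against baseline were lost with 1 library left out for *Map1a* (4 libraries), *Vim* (3), *Lmnb1*, *Tube1* and *Tubd1* (2 each) and *Haus6* (1). Shares on CPM without division by length, in the order baseline, vehicle and NSC, were 10.6%, 31.8% and 33.0% for *Tuba1b*, 22.1%, 30.4% and 33.9% for *Tuba1c*, 64.8%, 33.4% and 28.8% for *Tuba4a*, and 17.2%, 26.4% and 24.1% for *Tubb5*. *Tuba1a* was at 2.53% at baseline and 4.40% in vehicle, and *Tubb2a*, *Tubb2b* and *Tubb6* in vehicle at 29.7%, 0.675% and 8.61%. On that scale *Tuba4a* stayed the largest alpha share in vehicle, and *Tuba1b* and *Tuba1c* were larger in NSC. Counts were low for *Stmn1*, *Tubb2b* and *Tubb6* at baseline, where depth limits the fold changes.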
